A study of Mus musculus with 18 samples.

Results

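The transcripts of 10 CC chemokines were followed across resting and LPS-treated mouse macrophages with or without miR-146a. The members are Ccl2, Ccl3, Ccl4, Ccl5, Ccl6, Ccl7, Ccl9, Ccl12, Ccl17 and Ccl22, taken by gene name from a table of 21734 protein-coding genes; the rule itself uses no measured value. After the filter on low counts 11357 genes were tested, among them 9 of the 10 members; Ccl17 did not pass. The study asked whether a microRNA that keeps its seed but has a changed 3′ part still acts as the wild-type microRNA does.

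The cells were bone marrow-derived macrophages (BMDMs), grown from marrow for 8 to 9 days with M-CSF at 10 ng/mL. The marrow came from 6 to 7 month old mice of a 129/B6 mix, 3 mice of each genotype. The 3 genotypes were miR-146 Wild-type (WT), miR-146 Knock-out (KO), and 3′F, a non-seed swap in which the wild-type 3′ part of miR-146a is replaced. Cultures of each genotype were harvested 16 h after a medium change, either with LPS at 1 ng/ml or without it (resting). This gave 6 groups of 3 libraries, 18 in all. The knockout and the swap are germline alleles kept in separate colonies. By the study's methods its WT mice came in equal parts from both colonies, and the labels do not say which colony a WT library came from. The labels do not tie a library number to a mouse, so p-values measure the spread between cultures of a group, which may be partly technical. The microRNA is not among the protein-coding genes of the table, so the genotypes rest on the labels.

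CC chemokines are small secreted proteins with paired cysteines near the amino terminus that draw leukocytes along a gradient through G protein-coupled receptors named CCR. Macrophages that sense LPS through TLR4 switch on many of them through NF-κB and, in a later wave, through interferon and its receptor. miR-146a is an LPS-induced microRNA known to target signalling proteins of the TLR4 pathway, IRAK1 and TRAF6.

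The 2 forms of miR-146a compared in this study are shown first because they define the genotypes. In each run the capitals mark the seed, nucleotides 2 to 8 counted from the 5′ end. The mature RefSeq sequence lies at chr11:43374435-43374456 on the minus strand of GRCm38.p6, and the WT and 3′F sequences below it are the guide strands of the mimics that the study designed, without their 3′ overhang.
mmu-miR-146a-5p: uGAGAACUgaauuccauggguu
WT mimic: uGAGAACUgaauuccauggg
3′F mimic: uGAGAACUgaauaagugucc
The WT mimic matched the RefSeq sequence over all 20 of its nucleotides. The WT and 3′F strands differed at 8 positions, which ran from nucleotide 13 to nucleotide 20, and their seeds were identical.

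The members lie in 2 places in the genome (build GRCm38). On chromosome 11, 8 of them lie within 1629 kb. Ccl2 (chr11:82035571-82037453), Ccl7 (chr11:82045712-82047525) and Ccl12 (chr11:82101845-82103400) are on the plus strand. Ccl5 (chr11:83525778-83530518), Ccl9 (chr11:83572919-83578636), Ccl6 (chr11:83587882-83593087) and Ccl3 (chr11:83647844-83649355) are on the minus strand, and Ccl4 (chr11:83662584-83664683) is on the plus strand. On chromosome 8, Ccl22 (chr8:94745590-94751699) and Ccl17 (chr8:94810453-94812036) lie 66.4 kb from end to end, both on the plus strand. No exon of a member overlapped an exon of another annotated gene on either strand. Although the genes are relatives, the longest run shared by the longest transcripts of any pair of members was 25 bases, between Ccl6 and Ccl9, and the next was 23 bases, between Ccl2 and Ccl7. The share of 30-base stretches of a member that also occurred in transcripts of other genes was 3.95% for Ccl9, 1.08% for Ccl6, 0.753% for Ccl5 and 0 for the other 7.

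Of the 10 members, Ccl9 was the only one whose longest annotated 3′ UTR held a match to the miR-146a seed. It is a 7mer (capitals) in a UTR of 2465 bases, on the minus strand at chr11:83574187-83574210.
Ccl9 seed match: atctttggaAGTTCTCcctgttcg
Among 11261 tested genes with an annotated 3′ UTR, 35.7% held a match of 6 or more bases, and the median UTR was 1354 bases long. The UTRs of the other 9 members ran from 167 bases (Ccl12) to 1813 bases (Ccl22). A match of letters does not show that the site is used.

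The RefSeq promoter table of GRCm38.p6, which gives 250 bases before and 50 bases after a start site, held Ccl3, Ccl6, Ccl9, Ccl12, Ccl17 and Ccl22. A kappa B letter pattern, GGGNNNNNCC on either strand, was in 2 of these 6 windows, Ccl9 with 1 match and Ccl22 with 2, and in 50.8% of all 32851 promoters of the table. An interferon response pattern, GAAANNGAAA on either strand, was in none of the 6 and in 3.44% of all promoters. The windows of Ccl9 and Ccl12 are printed because both genes rose with LPS in every genotype. Capitals mark the kappa B match of Ccl9, which starts 35 bases before the start site, and the window of Ccl12 held neither pattern. The Ccl9 window is chr11:83578587-83578886 on the minus strand and the Ccl12 window is chr11:82101595-82101894 on the plus strand.
Ccl9 promoter: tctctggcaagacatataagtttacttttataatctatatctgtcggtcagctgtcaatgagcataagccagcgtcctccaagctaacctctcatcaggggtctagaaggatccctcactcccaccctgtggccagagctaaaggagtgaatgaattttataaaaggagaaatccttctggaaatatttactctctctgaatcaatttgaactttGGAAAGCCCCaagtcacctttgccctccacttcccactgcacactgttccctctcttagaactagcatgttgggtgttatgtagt
Ccl12 promoter: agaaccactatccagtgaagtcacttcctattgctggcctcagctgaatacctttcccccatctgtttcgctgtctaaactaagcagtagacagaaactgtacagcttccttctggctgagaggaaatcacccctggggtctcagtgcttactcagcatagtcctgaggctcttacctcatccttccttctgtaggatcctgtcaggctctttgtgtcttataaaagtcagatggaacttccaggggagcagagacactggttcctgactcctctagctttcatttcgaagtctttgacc

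Libraries held 4071084 to 19818043 counts. Levels are given as CPM, counts per 1000000 of library size after TMM scaling, and group means with their SD over n = 3 libraries. All 9 macrophage markers (among them Adgre1, Csf1r and Mertk) had over 3 counts in all 18 libraries, and their summed level was 31905 to 88027 CPM. Summed markers of other cell types were at most 16.2 CPM for dendritic cells, 66.3 for neutrophils, 11.5 for T and NK cells, 1.17 for B cells, 0.702 for mast cells and basophils, and 5.21 for stromal cells. Monocyte markers (among them Ly6c2 and Ccr2) summed to 31.9 to 255 CPM and were highest in KO, at 78.4 to 210 CPM resting and 244 to 255 CPM after LPS, against 31.9 to 43.0 and 83.1 to 153 CPM in WT. In bulk RNA, fewer cells of a type and less RNA per cell cannot be told apart. There were 2 resting libraries that stood apart. Resting KO replicate 3 had a summed level of 15 interferon-stimulated genes of 12971 CPM, against 469 and 633 CPM in the other resting KO libraries and 97.1 to 247 CPM in resting WT and 3′F. Resting 3′F replicate 3 was the shallowest library. On the second principal component of log2 CPM it lay at 50.3, against -4.50 and -5.32 for the other resting 3′F libraries. Whether depth accounts for this was not tested.

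**Figure D1:**
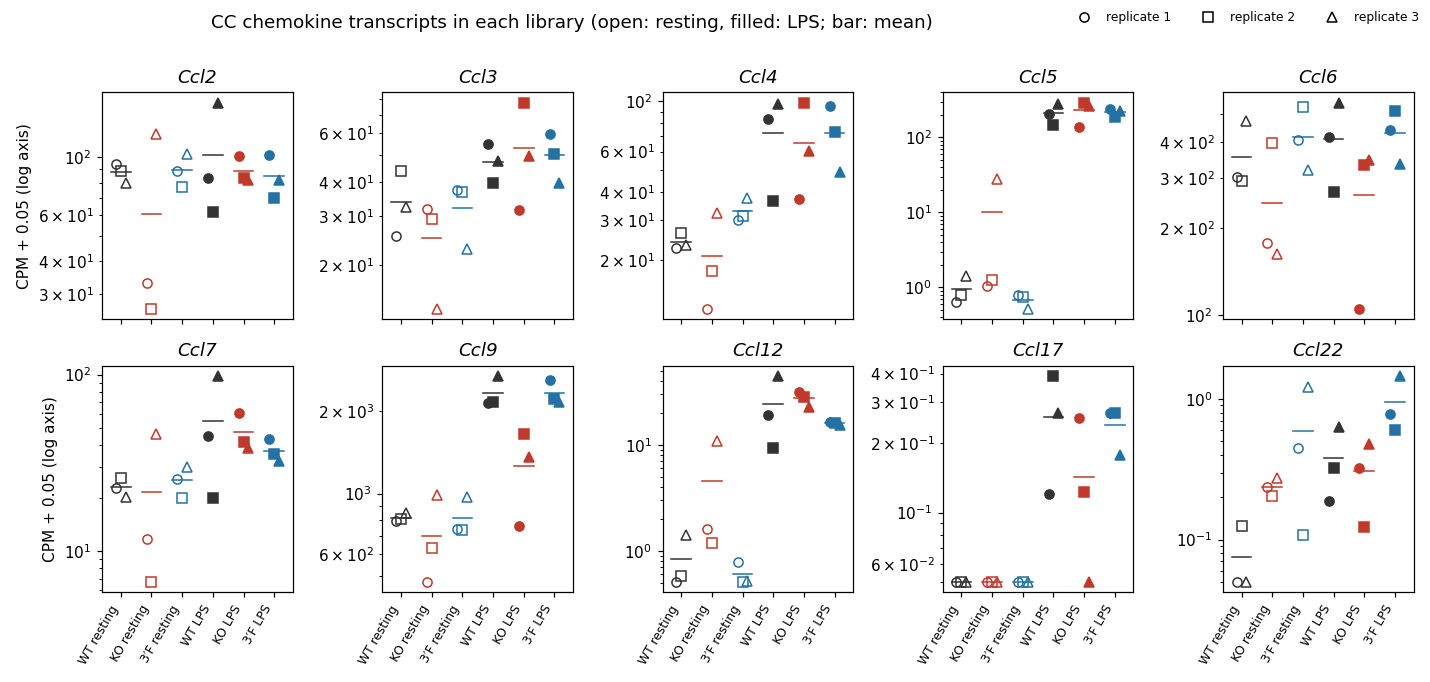
CPM plus 0.05 on a log axis for each of the 10 chemokines in the 18 libraries, by group (open symbols resting, filled symbols LPS, the shape gives the replicate and the bar the group mean). For Ccl5 all LPS libraries lie above all resting libraries, for Ccl12 all do except WT LPS replicate 2 (9.35 CPM, below 10.8 CPM in resting KO replicate 3), and the triangle of resting KO (replicate 3) lies above the other resting KO libraries for Ccl2, Ccl5, Ccl7 and Ccl12.

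When levels were scaled to exon length so that genes could be set beside each other, Ccl9 and Ccl6 led in resting cells. The level in resting WT was 271 ± 9.3 CPM per kb for Ccl9 and 247 ± 71 CPM per kb for Ccl6, and their ranges over libraries overlapped. Ccl2 followed at 108 ± 8.8 CPM per kb, apart from its neighbours on either side. Ccl3 (44.1 ± 12), Ccl4 (36.4 ± 3.0) and Ccl7 (28.8 ± 3.5 CPM per kb) came next, with Ccl3 and Ccl4 overlapping. Ccl5 (1.69 ± 0.76) and Ccl12 (1.45 ± 0.93 CPM per kb) overlapped each other and were far below. After LPS the order in WT was Ccl9 (775 ± 104), Ccl5 (395 ± 126), Ccl6 (285 ± 97), Ccl2 (126 ± 65), Ccl4 (110 ± 48), Ccl7 (67.9 ± 50), Ccl3 (61.7 ± 9.8) and Ccl12 (45.3 ± 34 CPM per kb). From Ccl5 down to Ccl12 each of these overlapped the next, while Ccl9 stood above Ccl5. In KO after LPS, Ccl5 (436 ± 153) and Ccl9 (418 ± 151 CPM per kb) overlapped at the top. In 3′F after LPS, Ccl9 (774 ± 77) was again apart from Ccl5 (408 ± 50 CPM per kb). Without division by exon length, Ccl9 had the highest CPM of the members in every group, and its share of their summed CPM was 51.5% to 78.7% per library.

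**Figure D2:**
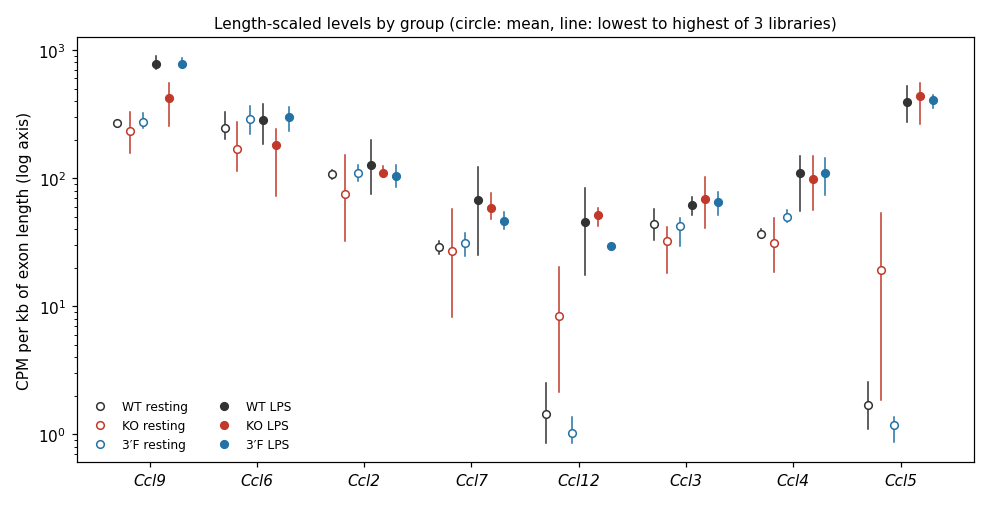
Levels per kb of exon length on a log axis for the 8 members above the floor, by group (circle mean, line lowest to highest of 3 libraries, open resting, filled LPS). Ccl5 moves from 1.69 CPM per kb in resting WT to 395 CPM per kb after LPS, and Ccl9 after LPS is lower in KO (418) than in WT (775) and 3′F (774).

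LPS raised part of the family in every genotype. The members called (adjusted p under 0.05, edgeR quasi-likelihood test with Benjamini-Hochberg adjustment over 11357 genes) were Ccl4, Ccl5, Ccl9 and Ccl12 in WT, these 4 and Ccl3 in KO, and the same 4 as in WT in 3′F. All of them were higher. Of all genes tested, 28.5% were called in WT, 26.9% in KO and 31.2% in 3′F. The median log2 fold change of the 9 tested members was 1.51 in WT, 1.07 in KO and 1.15 in 3′F, beside 0.02, 0.02 and -0.01 over all genes tested. The number of members called in KO was 3 without KO LPS replicate 2, where 18.7% of all genes were called, and 6 without resting KO replicate 3, where 35.2% were.

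**Figure D3:**
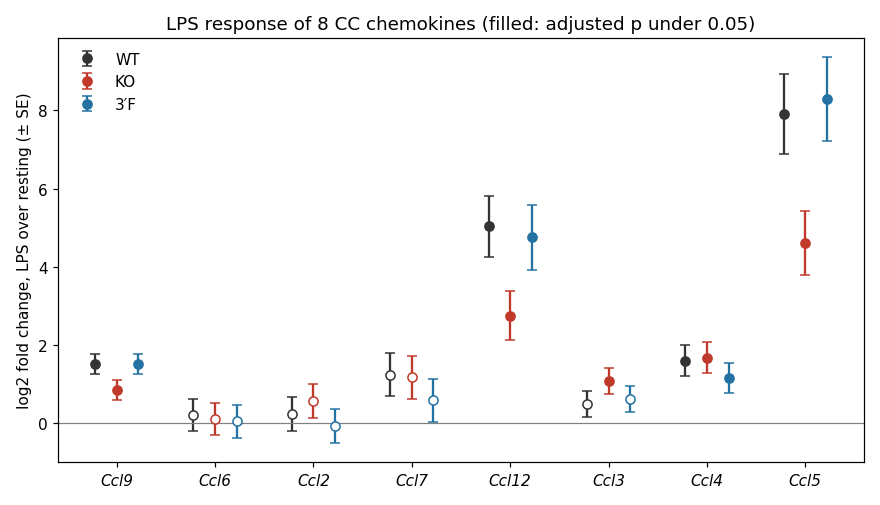
log2 fold change of LPS over resting with its SE for 8 members in WT, KO and 3′F (filled points passed an adjusted p of 0.05). Ccl5 (7.91 in WT, 4.61 in KO, 8.29 in 3′F) and Ccl12 (5.03, 2.75 and 4.75) respond most, and Ccl6 stays within 0.21 of no change in each genotype.

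Ccl5 (RANTES), a ligand of CCR1 and CCR3 that draws T cells and monocytes, was nearly silent at rest. Resting WT libraries had 0.591, 0.753 and 1.35 CPM, and resting 3′F libraries had 0.734, 0.695 and 0.468 CPM. Resting KO libraries had 0.989, 1.22 and 28.3 CPM. Replicate 3 of resting KO was thus the only resting library above 1.35 CPM. After LPS the WT libraries reached 205, 146 and 279 CPM, the KO libraries 140, 292 and 265 CPM, and the 3′F libraries 237, 187 and 227 CPM. The 3 LPS groups overlapped one another, and each lay above its own resting libraries. The log2 fold change was 7.91 ± 1.03 (SE) in WT with an adjusted p of 3.68e-05, 4.61 ± 0.82 in KO with 0.00053, and 8.29 ± 1.07 in 3′F with 3.14e-05 (edgeR). The KO value was 7.71 without resting KO replicate 3.

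Ccl3 (MIP-1α) and Ccl4 (MIP-1β) are neighbours on chromosome 11 that draw monocytes and T cells, with Ccl3 acting on CCR1. Ccl4 measured 22.5, 26.3 and 23.3 CPM in resting WT and 83.6, 36.5 and 97.4 CPM in WT after LPS. In KO it measured 12.2, 17.8 and 32.2 CPM at rest and 37.3, 98.4 and 60.3 CPM after LPS, and in 3′F 30.03, 31.3 and 37.5 against 94.8, 73.2 and 48.9 CPM. In each genotype the lowest LPS library was above the highest resting library. Ccl4 rose by a log2 fold change of 1.59 ± 0.40 in WT (adjusted p = 0.0068), 1.67 ± 0.40 in KO (0.00533) and 1.15 ± 0.40 in 3′F (0.0365, edgeR). In 3′F the call was lost in 5 of the 6 fits that left out a library, all except the fit without 3′F LPS replicate 3, with values from 0.91 to 1.20 and adjusted p up to 0.137.

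Ccl3 changed less. It went from 25.4, 43.6 and 32.3 to 54.7, 39.7 and 47.5 CPM in WT, from 31.8, 29.2 and 13.8 to 31.5, 77.5 and 49.6 CPM in KO, and from 37.3, 36.6 and 22.7 to 59.8, 50.6 and 39.5 CPM in 3′F. Resting and LPS libraries overlapped in WT and KO and not in 3′F. Its log2 fold change was 0.49 ± 0.32 in WT (adjusted p = 0.291), 1.07 ± 0.33 in KO (0.0231) and 0.61 ± 0.33 in 3′F (0.163, edgeR). The KO call was lost without KO LPS replicate 2 (0.63, adjusted p = 0.219) and without resting KO replicate 3 (0.79, adjusted p = 0.0635, edgeR). Also lost was the call with the compared groups alone (adjusted p = 0.122, edgeR) and by limma-voom (adjusted p = 0.0643). Leaving out the third libraries of both resting KO and resting 3′F gave an adjusted p of 0.059 (edgeR).

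Ccl9 and Ccl6 are rodent chemokines that bind CCR1 and are made by macrophages without stimulation. Ccl9 (MIP-1γ) measured 793, 807 and 847 CPM in resting WT, 476, 634 and 987 CPM in resting KO, and 744, 737 and 969 CPM in resting 3′F. After LPS it reached 2149, 2151 and 2691 CPM in WT and 2593, 2222 and 2167 CPM in 3′F, but 764, 1654 and 1354 CPM in KO. Every KO LPS library was below every WT and 3′F LPS library, and KO LPS replicate 1 was below resting KO replicate 3. Ccl9 rose by a log2 fold change of 1.51 ± 0.26 in WT (adjusted p = 0.000463), 0.85 ± 0.26 in KO (0.0221) and 1.51 ± 0.26 in 3′F (0.000447, edgeR). The KO call was lost without resting KO replicate 1 (0.63), without resting KO replicate 2 (0.78), without KO LPS replicate 2 (0.56) and without KO LPS replicate 3 (0.79), with adjusted p up to 0.159 (edgeR). Also lost was the KO call in the fit of the compared groups alone (0.80, adjusted p = 0.15, edgeR). Without resting KO replicate 3 the log2 fold change was 1.18 with an adjusted p of 0.00144 (edgeR).

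Ccl6 (C10) was abundant and showed no response to LPS that passed the test. It ranged over 292 to 473 CPM in resting WT and 267 to 547 CPM in WT after LPS. The KO ranges were 163 to 394 and 105 to 346 CPM, and the 3′F ranges were 318 to 527 and 335 to 512 CPM. Resting and LPS ranges overlapped in every genotype. The log2 fold change was 0.21 ± 0.41 in WT (95% interval -0.67 to 1.08), 0.09 ± 0.41 in KO (-0.78 to 0.97) and 0.04 ± 0.41 in 3′F (-0.83 to 0.91).

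Ccl2 (MCP-1), Ccl7 (MCP-3) and Ccl12 (MCP-5) are ligands of CCR2 that draw monocytes from blood. Among them Ccl12 passed the test after LPS. It measured 0.46, 0.527 and 1.35 CPM in resting WT and 19.0, 9.35 and 44.7 CPM after LPS. It measured 1.55, 1.15 and 10.8 CPM in resting KO and 31.6, 28.4 and 22.8 CPM after LPS. It measured 0.734, 0.464 and 0.468 CPM in resting 3′F and 16.3, 16.1 and 15.4 CPM after LPS. No LPS library fell into the resting range of its genotype, and resting KO replicate 3 (10.8 CPM) exceeded WT LPS replicate 2 (9.35 CPM). Ccl12 rose by a log2 fold change of 5.03 ± 0.78 in WT (adjusted p = 0.000182), 2.75 ± 0.63 in KO (0.00402) and 4.75 ± 0.83 in 3′F (0.000487, edgeR). The KO value was 4.33 without resting KO replicate 3.

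Ccl2 was expressed at rest and did not pass the edgeR test with LPS when all libraries were kept. It measured 94.3, 88.9 and 80.1 CPM in resting WT and 83.7, 61.5 and 162 CPM in WT after LPS. In KO it measured 32.9, 26.2 and 123 CPM at rest and 101, 83.3 and 82.2 CPM after LPS, and in 3′F 89.0, 77.3 and 103 against 102, 69.8 and 82.0 CPM. Resting KO replicates 1 and 2 were the lowest of the 18 libraries, and resting KO replicate 3 was the second highest. The log2 fold change with LPS was 0.22 ± 0.43 in WT (95% interval -0.69 to 1.14), 0.56 ± 0.44 in KO (-0.36 to 1.49) and -0.08 ± 0.44 in 3′F (-1.0 to 0.84). Without resting KO replicate 3, Ccl2 was called higher with LPS in KO, at a log2 fold change of 1.59 and an adjusted p of 0.000749 (edgeR). With all libraries kept, limma-voom with quality weights also called it in KO (1.53, adjusted p = 4.89e-05).

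Ccl7 showed the same split among resting KO libraries. It measured 22.9, 26.0 and 20.3 CPM in resting WT, 11.7, 6.65 and 46.1 CPM in resting KO, and 25.7, 19.9 and 29.7 CPM in resting 3′F. After LPS it measured 44.9, 20.1 and 98.3 CPM in WT, 60.8, 41.7 and 38.6 CPM in KO, and 43.3, 35.4 and 32.2 CPM in 3′F. WT LPS replicate 2 lay below all 3 resting WT libraries, while WT LPS replicate 3 was the highest of all. Its log2 fold change was 1.24 ± 0.55 in WT (adjusted p = 0.108), 1.16 ± 0.56 in KO (0.138) and 0.58 ± 0.56 in 3′F (0.453, edgeR). It was called in WT without WT LPS replicate 2 (1.64, adjusted p = 0.0335) and in KO without resting KO replicate 3 (2.35, adjusted p = 0.00128, edgeR). With all libraries kept, limma-voom with quality weights called Ccl7 in WT (1.02, adjusted p = 0.0351) and in KO (2.30, adjusted p = 0.000126).

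Ccl17 (TARC) and Ccl22 (MDC) are ligands of CCR4 that draw T cells of the type 2 and regulatory kinds, and both were near the floor. Ccl17 had 0 counts in all 9 resting libraries, which allows a level of up to 0.169 to 0.702 CPM per library for 3 counts. After LPS it had 1, 5 and 3 counts in WT, 3, 1 and 0 in KO, and 3, 4 and 1 in 3′F. Ccl22 had 0, 1 and 0 counts in resting WT, 3, 2 and 2 in resting KO, and 7, 1 and 5 in resting 3′F. After LPS it had 2, 4 and 8 counts in WT, 4, 1 and 6 in KO, and 10, 10 and 11 in 3′F. Such a limit takes in counting error alone, because the libraries carried no molecular identifiers. Ccl22 passed the filter on low counts with at most 11 counts per library and was not called in any comparison by edgeR with all libraries. No fold change is given for either gene.

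The next question was whether loss of miR-146a changes these levels. In resting KO against WT, 1 of 9 tested members was called, Ccl5, which was higher by a log2 fold change of 3.45 ± 1.02 with an adjusted p of 0.0451 (edgeR). Of all genes tested, 9.4% were called. The Ccl5 ranges overlapped, at 0.989 to 28.3 CPM in KO and 0.591 to 1.35 CPM in WT. Ccl12 was 2.47 ± 0.86 with an adjusted p of 0.084 (edgeR), at 1.15 to 10.8 CPM in KO against 0.46 to 1.35 CPM. The remaining members ran from -0.54 (Ccl2 and Ccl6) to -0.14 (Ccl7), leaving out Ccl22, which was at or under 3 counts in every library of both groups.

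Leaving out single libraries changed these calls. Without any 1 of the resting WT libraries the Ccl5 value stayed at 3.19 to 3.81 while its call was lost (adjusted p from 0.0849 to 0.154), and Ccl12 was called as well without resting KO replicate 1 (2.93) or replicate 2 (2.95, edgeR). Without resting KO replicate 3, Ccl5 was 0.35 (adjusted p = 0.795) and Ccl12 was 0.89 (adjusted p = 0.571, edgeR), and the 1 member called was Ccl2, which fell by 1.57 on the log2 scale (adjusted p = 0.00734, edgeR). In that fit 7.03% of all genes were called. Ccl7 was -1.32 with an adjusted p of 0.113 (edgeR). Ccl4 was -0.68 and Ccl9 -0.55, and neither was called. With all libraries kept, limma-voom with a quality weight for each library also called Ccl2 (-1.43) and not Ccl5 (0.28). In these 2 remaining libraries Ccl2 was at 26.2 and 32.9 CPM against 80.1 to 94.3 CPM in resting WT, and the summed interferon-stimulated genes were at 469 and 633 CPM against 97.1 to 247 CPM in WT. In replicate 3 Ccl2, Ccl4, Ccl5, Ccl7, Ccl9 and Ccl12 were all above the other resting KO libraries, as were the interferon-stimulated genes, and Ccl9 (987 CPM) was the highest of all 9 resting libraries, while Ccl3 (13.8 CPM) and Ccl6 (163 CPM) were at their lowest for resting cells.

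**Figure D4:**
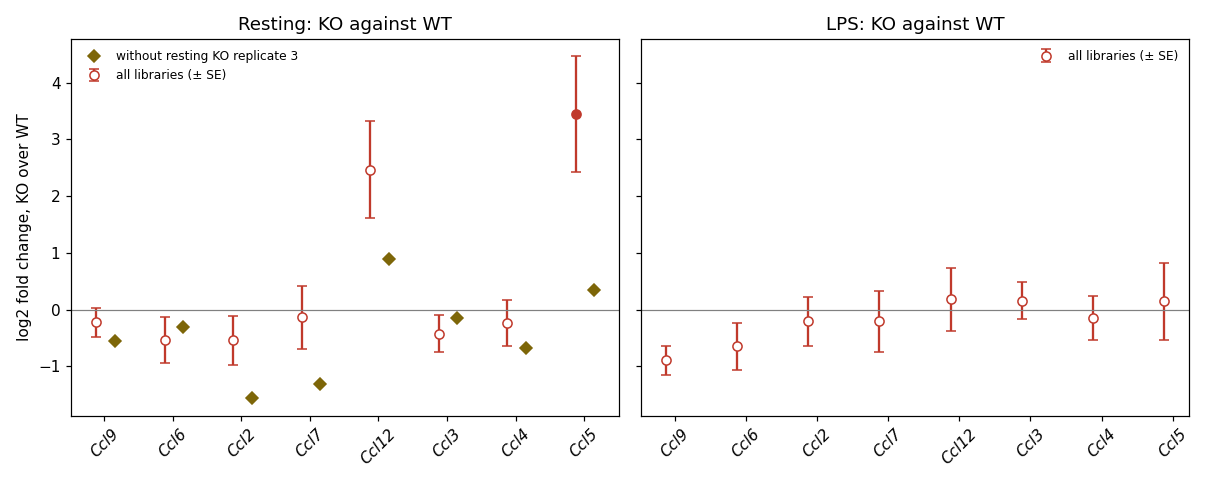
log2 fold change of KO over WT for 8 members in resting cells (left) and after LPS (right), with its SE (filled points passed an adjusted p of 0.05) and, for resting cells, the value without resting KO replicate 3 (diamonds). Ccl5 falls from 3.45 to 0.35 and Ccl2 from -0.54 to -1.57 when that library is left out.

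The comparison of resting KO with resting 3′F gave a similar account with other controls and the same KO libraries. Ccl5 was the 1 member called, at 3.78 ± 1.08 with an adjusted p of 0.0326 (edgeR), where 12.9% of all genes were called. Ccl12 was 2.80 ± 0.90 with an adjusted p of 0.052 (edgeR). For both genes every KO library lay above every 3′F library in CPM, but counts were few. Ccl5 had 16, 16 and 252 counts in KO and 13, 12 and 2 in 3′F. Ccl12 had 25, 15 and 96 counts in KO and 13, 8 and 2 in 3′F. The share of all genes with such a separation was not computed. Without resting KO replicate 3, Ccl5 was 0.67 (adjusted p = 0.487) and Ccl2 was -1.59 (adjusted p = 0.0078, edgeR), with 7.99% of all genes called. Without any single resting 3′F library the Ccl5 value was 3.68 to 3.86 and its call was lost, with adjusted p from 0.0672 to 0.0795 (edgeR), and Ccl12 was called without resting KO replicate 1 (3.26) or replicate 2 (3.28).

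After LPS, KO and WT differed most in Ccl9. Its level was 1257 ± 453 CPM in KO, 2331 ± 312 CPM in WT and 2327 ± 232 CPM in 3′F, with no overlap between KO and either other genotype. The log2 fold change of KO over WT was -0.89 ± 0.26, a 1.85-fold lower level, with an unadjusted p of 0.00322 and an adjusted p of 0.0588 by edgeR, so that 0 of 9 members were called, while 4.79% of all genes were. At an unadjusted p under 0.05 there was 1 member, Ccl9, and DESeq2 and limma-voom each called it (adjusted p = 0.011 and 0.00272). Over the 13 alternatives it was called in 6, with values from -1.14 to -0.63 and adjusted p from 0.00272 to 0.2. The replicate block, 1 of these 6, joins same-numbered libraries of different genotypes (adjusted p = 0.0382, edgeR). Leaving out KO LPS replicate 2, the highest of the KO libraries, gave -1.14 with an adjusted p of 0.0462 (edgeR), and leaving out KO LPS replicate 1, the lowest, gave -0.63. The summed macrophage markers were at 71317 to 88027 CPM in KO after LPS and 45639 to 60055 CPM in WT, and their part in this difference was not tested. Ccl6 was 0.65 lower on the log2 scale in KO (-0.65 ± 0.41, adjusted p = 0.464, edgeR), and KO LPS replicate 1 was the lowest of all libraries for Ccl6 too. Ccl2, Ccl3, Ccl4, Ccl5, Ccl7 and Ccl12 lay between -0.21 and 0.18. For Ccl5 the 95% interval of the difference was -1.29 to 1.58, and for Ccl3, the narrowest of these, -0.52 to 0.84.

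KO against 3′F after LPS gave 0 of 9 members called by edgeR, with 2 at an unadjusted p under 0.05 (Ccl9 and Ccl22). Of all genes, edgeR called 3.88%. DESeq2 and limma-voom each called 1 member, Ccl9, where they called 6.8% and 16.2% of all genes. Ccl9 was -0.89 ± 0.26 with an adjusted p of 0.067 (edgeR). Ccl12 was 0.79 ± 0.56 (adjusted p = 0.547, edgeR), with 22.8 to 31.6 CPM in KO above 15.4 to 16.3 CPM in 3′F. It was called in the fit of these 2 groups alone, at an adjusted p of 0.00417 (edgeR).

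Between 3′F and WT no member passed the test. At rest 0 of 9 members were called by edgeR, by DESeq2 and by limma-voom, with 1 (Ccl22) at an unadjusted p under 0.05. After LPS the count was 0 by all 3 tools and 0 at an unadjusted p under 0.05. Of all genes, edgeR called 0% at rest and 0.00881% after LPS. DESeq2 called 0.0101% in each state, and limma-voom called 0.0176% at rest and 0.00881% after LPS. For Ccl9 the 95% interval of the difference between 3′F and WT was -0.54 to 0.54 both at rest and after LPS. The interval for Ccl4 after LPS was -0.81 to 0.81. It was widest for the members scarce at rest, at -3.34 to 2.68 for Ccl5 and -2.73 to 2.08 for Ccl12 in resting cells. Differences inside these intervals are compatible with the data from 3 libraries a group, so equal levels in 3′F and WT were not shown.

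Whether the LPS response itself differed between genotypes was asked with an interaction term. Between KO and WT, edgeR called 0.00881% of all genes, DESeq2 0.273% and limma-voom 0.502%. Of the members, 0 of 9 were called by each of these tools, with 2 at an unadjusted p under 0.05 by edgeR. These were Ccl5 (-3.30 ± 1.25, KO response minus WT response, adjusted p = 0.797, edgeR) and Ccl12 (-2.29 ± 1.03, adjusted p = 0.968, edgeR). Without resting KO replicate 3 they were -0.21 and -0.71. In that fit Ccl2 was 1.36 (unadjusted p = 0.00325, adjusted p = 0.439, edgeR), beside 0.34 ± 0.61 with all libraries. Ccl7 was 1.11 in that fit (unadjusted p = 0.0851, edgeR), beside -0.07 ± 0.78 with all libraries. No member was called there, beside 0.0348% of all genes. Ccl9 was -0.67 ± 0.36 (adjusted p = 1.00, edgeR) and, without that library, -0.34. Between 3′F and WT 0 of 9 were called by the same tools, 0 had an unadjusted p under 0.05, and 0% of all genes were called.

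**Figure D5:**
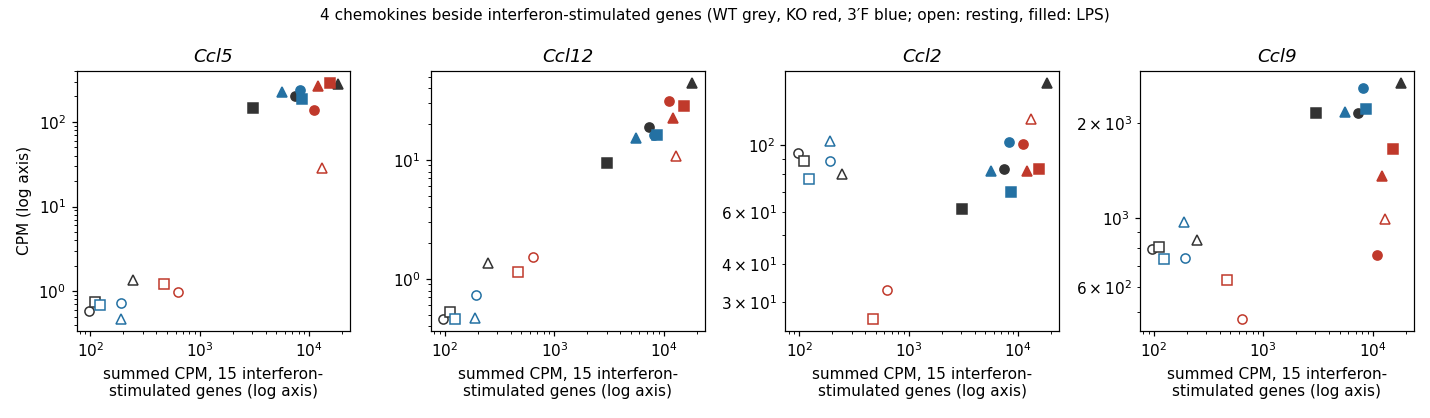
CPM of Ccl5, Ccl12, Ccl2 and Ccl9 (log axis) beside the summed CPM of 15 interferon-stimulated genes (log axis) in the 18 libraries; the shape gives the replicate as circle 1, square 2 and triangle 3. Resting KO replicate 3 (open red triangle) sits at 12971 CPM of interferon-stimulated genes, among the LPS libraries, with 28.3 CPM of Ccl5 where LPS libraries hold 140 to 292.

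Interferon-stimulated genes moved with several of these results. In WT they summed to 97.1 to 247 CPM at rest and 3047 to 18172 CPM after LPS. Their lowest and highest WT LPS libraries, replicates 2 and 3, were also the lowest and highest for Ccl2, Ccl4, Ccl5, Ccl6, Ccl7 and Ccl12. The order was mixed in the other genotypes. In KO after LPS the interferon-stimulated genes were lowest in replicate 1 (11067 CPM). Ccl3, Ccl4, Ccl5, Ccl6 and Ccl9 were lowest there too, while Ccl2, Ccl7 and Ccl12 were highest. In 3′F after LPS the interferon-stimulated genes were highest in replicate 2 (8668 CPM), where Ccl6 was highest and Ccl2 and Ccl5 were lowest. With LPS, 15 of 15 were called higher in WT, 14 in 3′F and 2 in KO, with median log2 fold changes of 5.97, 5.50 and 1.45. The interaction term between KO and WT was called for 0 of the 15 by edgeR. In resting KO against WT 14 of 15 were called higher, and without resting KO replicate 3 the count was 10 of 15 with a median of 2.03. Without that library 14 of 15 were called higher with LPS in KO. Their part in the chemokine levels was not tested.

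The receptors of the family were described by a list of 15 CC receptors and decoys, of which 6 were tested. With LPS, Ccr9, the receptor for Ccl25, was called higher in every genotype, at a log2 fold change of 2.19 ± 0.47 in WT, 2.08 ± 0.40 in KO and 2.72 ± 0.49 in 3′F. Ccr3, a receptor for Ccl5 and Ccl24, was called higher with LPS in WT (1.27 ± 0.39, adjusted p = 0.0214, edgeR) and not in KO (0.40 ± 0.38) or 3′F (0.85 ± 0.38). Whether these responses differed between genotypes was asked with the interaction term, which was not called for Ccr3 or Ccr9 by edgeR. The median log2 fold change of the 6 was 0.72 with LPS in WT, 0.39 in KO and 0.34 in 3′F.

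Of 14 other CC ligands, 13 were in the table and 3 were tested, Ccl8, Ccl24 and Ccl25. Ccl24 (eotaxin-2), which draws eosinophils through CCR3, had 0.263, 0.376 and 0.677 CPM in resting WT and 3.71, 1.84 and 3.93 CPM in resting KO. The groups did not overlap, and the log2 fold change was 2.88 ± 0.44 with an adjusted p of 0.00156 (edgeR). Ccl24 also rose with LPS in WT (2.51 ± 0.44) and in 3′F (1.45 ± 0.40) and was not called in KO (0.46 ± 0.34). The interaction term, KO or 3′F against WT, was called for 0 of the 3 ligands by edgeR. Ccl8 (MCP-2) had 3, 1 and 3 counts in resting WT and 92, 35 and 243 counts after LPS, and it was called higher with LPS in every genotype. Ccl25 was called in no comparison.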

How the data were processed

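RNA-seq was made from rRNA-depleted total RNA of 18 BMDM cultures as directional libraries. The deposited values are raw counts per protein-coding gene, made by the authors from reads aligned to mm10 with mapping quality of at least 50 and Gencode M15 annotation. The submitters' processing notes name cutadapt 1.8.3, HISAT2 2.1.0 and featureCounts 1.5.3. Libraries held 4071084 to 19818043 counts, and the shallowest is the least precise.

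In R 4.3.3, genes were filtered with filterByExpr and scaled by TMM (factors 0.812 to 1.15), and 1 edgeR 4.0.16 quasi-likelihood fit over the 6 groups gave 11 comparisons, with Benjamini-Hochberg adjustment over all tested genes and a threshold of 0.05. The fold changes estimated by the fit were checked on simulated data without outlying libraries. The check does not extend to error rates in data with outlying libraries such as these. SE and 95% intervals are on the log2 scale. CPM per kb divides by the exon length given for each gene with the deposited counts. Gene coordinates, transcripts and UTRs are those of GENCODE M21 on GRCm38. DESeq2 1.42.0, limma 3.58.1 (voom with quality weights), RLE scaling, no filter, a replicate block, fits of the compared groups alone and fits leaving out libraries were alternatives.

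All 10 members are named. Of each list (receptors, other ligands, transcription factors, interferon-stimulated genes) up to 3 called genes with the largest changes are named per comparison, and some genes of these lists are not reported here. Ccl8, Ccl24 and Ccl25 are all the tested other ligands, and uncalled values of Ccl24 and Ccl25 are given beyond that rule. The 2 genes most like a member have the smallest root mean square difference in centred log2 CPM (prior count 2) over 18 libraries. Members and lists were chosen with earlier results of these data known.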

Additional observations from a re-analysis of the deposited data

How the results depend on the processing

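Of 1384 values of single members under an alternative, 1314 kept their side of the threshold, 31 calls were lost, 39 were gained and no call changed direction. For LPS in KO, 5 members were called, 3 in the fit of the compared groups alone (22.9% of all genes called there), and 3 to 6 with a library left out. For resting KO against WT, 1 was called, 2 without the filter (4.95%) and by DESeq2 (12.1%, Ccl5 and Ccl12 in each), 0 with the compared groups alone (3.65%), and 0 to 2 with a library left out. For resting KO against 3′F, 1 was called, 2 without the filter (6.58%) and by DESeq2 (17.7%), 2 by limma-voom (25.7%, Ccl2 and Ccl4, lower), 0 with the compared groups alone (0.146%), and 0 to 2 with a library left out. After LPS, KO against WT gave 0 and KO against 3′F gave 0, while no filter, DESeq2, limma-voom and leaving out the third libraries of resting KO and 3′F each gave 1 (Ccl9) in both, with 2.22% to 16.2% of all genes called. KO against WT gave 0 to 1 with a library left out, and KO against 3′F gave 2 with the compared groups alone (15.2%). The causes were not tested. 

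The replicate numbers were not taken to pair the libraries, because the labels do not tie a number to a mouse. Resting and LPS libraries of the same genotype and number share a letter in their column names. Deviations of same-numbered libraries correlated at 0.0283 to 0.318 between resting and LPS and at -0.287 to 0.214 between genotypes. Of 3 numbers, 3, 2 and 2 correlated best with themselves for LPS in WT, KO and 3′F. A pairing of resting with LPS libraries is therefore not excluded. The replicate block took genotype and number together for LPS responses and interactions, and number alone for genotype comparisons. Number alone puts libraries from mice of different genotypes into the same block. With the replicate block, 0 members were called in resting KO against WT and against 3′F and 1 (Ccl9) in both comparisons after LPS (8.48%, 11.3%, 5.1% and 3.81% of all genes for KO against WT and 3′F at rest, then WT and 3′F after LPS), while LPS in WT, KO and 3′F kept counts of 4, 5 and 4. Depth limits Ccl17 and Ccl22, and 3 libraries a group limit the rest.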

Other observations

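The 18 transcription factors known at CC chemokine promoters were all tested. With LPS in WT, 8 rose and 2 fell (adjusted p under 0.05, edgeR), among them Irf7 (5.36 ± 0.96 on the log2 scale) and Stat2 (3.19 ± 0.55), which carry the interferon response. In 3′F, 10 rose and 1 fell, among them Irf7 (5.27) and Stat2 (3.50). In KO, 5 rose and 4 fell, and the largest changes were Irf4 (-3.01 ± 0.67), the AP-1 subunit Fos (-1.83 ± 0.25) and Irf1 (1.32), while without resting KO replicate 3 the counts were 8 higher and 3 lower. Resting KO against WT had 8 higher and 0 lower, among them Irf7 (4.79) and Stat2 (2.31), and 7 higher without resting KO replicate 3. After LPS, the NF-κB subunit Nfkb1 was higher in KO than in WT (0.59 ± 0.11, adjusted p = 0.00612, edgeR) and Fos was lower (-0.96 ± 0.25, adjusted p = 0.0362, edgeR). Against 3′F after LPS, Cebpb (0.71) and Nfkb1 (0.57) were higher in KO. Between 3′F and WT none of the 18 was called by edgeR in either state. The interaction term, KO or 3′F against WT, was called for 0 of the 18 by edgeR. Of all genes tested, edgeR called 28.5% with LPS in WT, 26.9% in KO and 31.2% in 3′F. For resting KO against WT it called 9.4%, and after LPS 4.79% for KO against WT and 3.88% for KO against 3′F. The median log2 fold change of the list was 0.47 with LPS in WT, 0.17 in KO, 0.63 in 3′F and 0.52 in resting KO against WT, while all genes tested had medians within 0.02 of 0 in these comparisons.

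The genes most like each member over the 18 libraries, among 10253 candidates, were Saa3 (root mean square difference of 0.74 in log2 CPM) and Lcn2 (0.84) for Ccl5, and the guanylate-binding genes Gbp7 (0.42) and Gbp4 (0.46) for Ccl12. Ccl9 was nearest to Pdk3 (0.30) and Procr (0.32), Ccl2 to Hk3 (0.34) and Adamts6 (0.37), and Ccl7 to Rbm43 (0.44) and Tmem171 (0.47). Ccl3 was nearest to Eif4g2 (0.33) and Pvr (0.33), Ccl4 to Net1 (0.43) and Gbe1 (0.45), and Ccl6 to Mfge8 (0.38) and Tspan3 (0.41). Between members the difference was 0.41 for Ccl4 and Ccl9 and 0.44 for Ccl2 and Ccl7, and 1.66 for Ccl5 and Ccl12. These values describe libraries that share treatment and depth.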
